A study of Mus musculus with 10 samples.

Results

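The Sox genes with known roles in the nervous system and the neural crest were followed in H3K27me3 CUT&Tag profiles of fetal liver hematopoietic stem cells. The 10 genes were chosen by name as members of 3 subgroups of the family, out of 21938 protein-coding genes on the annotated chromosomes. They were Sox1, Sox2, Sox14 and Sox21 (SoxB), Sox4, Sox11 and Sox12 (SoxC), and Sox8, Sox9 and Sox10 (SoxE). The cells profiled were LT-HSCs, the long-term repopulating stem cells of blood, gated as CD48-CD150+ within the LSK fraction of mouse fetal liver at E14.5, with 3 libraries from WT and 3 from IκBα KO embryos. The KO embryos lacked Nfkbia, the gene for the NF-κB inhibitor IκBα, through a targeted germline allele, so every cell of the embryo carried the deletion. Embryos were obtained from matings between heterozygotes, and part of the colony also carried a Gfi1:tomato reporter. Another 4 libraries of the series profiled IκBα itself and were not analysed here. The study describes more embryos than libraries in each genotype, from independent experiments, so that some libraries will have been pools, and the labels do not tie a library to its embryos or experiment. The p-values given here therefore measure the spread between libraries, which may be partly technical. Nfkbia had a peak in 0 of the 6 libraries, and a profile of this histone mark does not check the genotype.

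H3K27me3 is the trimethyl mark that Polycomb repressive complex PRC2 places on histone H3, and it typically lies over CpG-rich promoters of developmental regulators that are silent in the cell type examined. Sox proteins are transcription factors that bind DNA through an HMG box. SoxB proteins maintain neural progenitors, with Sox14 and Sox21 acting mostly as repressors, SoxC proteins act in differentiating neurons and in many other tissues, and SoxE proteins specify neural crest cells and the glia, cartilage and pigment cells that arise from them. Sox4 also has known roles in blood, where it is used in B-lymphocyte development.

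Promoter sequences of genes with and without the mark are shown first, because CpG content is the sequence feature usually associated with it. They are the 250 bases upstream of the RefSeq start on GRCm38.p6, 5′ to 3′ on the strand of the gene, with every CpG dinucleotide in capitals. Sox2 (chr3:34649745-34649994, plus strand) and Sox21 (chr14:118237031-118237280, minus strand) lie where all 6 libraries had a peak at the gene, Sox8 (chr17:25570687-25570936, minus strand) where 4 had one, and Sox4 (chr13:28953700-28953949, minus strand) and Sox12 (chr2:152398047-152398296, minus strand) where none had one.
Sox2: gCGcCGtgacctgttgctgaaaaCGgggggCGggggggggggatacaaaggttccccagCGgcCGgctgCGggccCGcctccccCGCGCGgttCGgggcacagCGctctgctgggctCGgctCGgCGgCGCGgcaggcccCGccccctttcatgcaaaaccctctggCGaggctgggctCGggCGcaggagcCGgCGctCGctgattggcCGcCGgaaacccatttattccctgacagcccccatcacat
Sox21: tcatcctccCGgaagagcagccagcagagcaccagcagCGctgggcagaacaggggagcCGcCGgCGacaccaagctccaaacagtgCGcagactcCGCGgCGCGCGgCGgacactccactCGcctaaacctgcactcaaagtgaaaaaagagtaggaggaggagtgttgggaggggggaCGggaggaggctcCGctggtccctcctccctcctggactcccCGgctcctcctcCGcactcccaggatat
Sox8: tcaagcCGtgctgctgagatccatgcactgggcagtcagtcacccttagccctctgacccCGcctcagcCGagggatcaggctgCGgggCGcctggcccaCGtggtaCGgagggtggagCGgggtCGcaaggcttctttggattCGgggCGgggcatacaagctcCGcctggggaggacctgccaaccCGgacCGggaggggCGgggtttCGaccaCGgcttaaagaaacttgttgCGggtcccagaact
Sox4: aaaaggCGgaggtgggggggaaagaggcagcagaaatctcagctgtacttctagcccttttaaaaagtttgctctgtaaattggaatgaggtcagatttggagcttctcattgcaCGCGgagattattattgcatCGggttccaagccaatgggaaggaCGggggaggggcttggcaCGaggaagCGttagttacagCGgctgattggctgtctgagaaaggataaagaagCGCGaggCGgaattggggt
Sox12: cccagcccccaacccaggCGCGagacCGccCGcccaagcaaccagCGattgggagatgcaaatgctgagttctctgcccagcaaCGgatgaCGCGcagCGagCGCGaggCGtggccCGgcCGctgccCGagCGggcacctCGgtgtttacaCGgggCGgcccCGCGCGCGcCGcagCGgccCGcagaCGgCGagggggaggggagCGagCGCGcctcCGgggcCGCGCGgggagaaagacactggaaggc
These windows held 27 CpG in Sox2, 17 in Sox21, 18 in Sox8, 11 in Sox4 and 35 in Sox12. The most CpG-dense of the 5 sequences therefore belonged to a gene without a peak.

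The libraries differed in how much was called, which bears on every gene. Peaks were called separately in each library, and their number ranged from 1047 (WT replicate 3) to 6013 (WT replicate 2). WT replicate 3 also stood apart in the length its peaks covered, 1.90 Mb against 7.61 Mb to 27.8 Mb in the others, and in the median width of a peak, 1727 bp against 2835 bp to 3624 bp. Both replicate 3 libraries were sequenced with 50 bp reads and the other 4 with 75 bp reads. By the read totals the study gives, these shorter-read libraries were the shallowest of each genotype, with WT the shallower of the pair. The order of depth matched the order of peak numbers for these libraries but not for every pair, and the part of depth in the results was not tested. Of the marker genes of the sorted cells, 0 of 10 stem and progenitor genes, such as Kit, Runx1 and Gata2, had a peak in any library, beside 17.5% of all coding genes with a peak in at least 1 library, so lists this short say little. Of the genes typical of other fetal liver cells, 0 of 3 hepatoblast, 0 of 3 erythroid and 0 of 2 macrophage genes had a peak in any library, and 1 of 3 endothelial genes (Kdr) had one in WT replicates 1 and 2 only. A region without a peak lay below the call threshold of its library, and a lower signal in a pool of cells cannot be told apart from a mark carried by fewer cells.

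Most of the Sox genes carried the mark in both genotypes. A gene was counted as marked in a library when a peak overlapped its body or its promoter, from 5 kb upstream to 100 bp downstream of any transcription start site (TSS), by at least 1 bp. In WT, 8, 8 and 4 of the 10 genes were marked in replicates 1, 2 and 3, and in KO 8, 8 and 7. Over all protein-coding genes the share with a peak was, in the same order, 12.2%, 14.7% and 4.24% for WT and 14.51%, 13.8% and 8.91% for KO. The Sox genes thus followed the libraries, with the lowest count in the library with the fewest peaks. The mean number of marked Sox genes was higher by 1 gene in KO, a difference that did not pass a two-sided exact permutation test over the 20 assignments of the 6 libraries (p = 1.0, n = 3 and 3, smallest p this design allows 0.1).

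In all 3 WT libraries 4 of the 10 genes had a peak (Sox1, Sox2, Sox21 and Sox10), beside 3.85% of all coding genes. In all 3 KO libraries 7 had one (the same 4 with Sox14, Sox11 and Sox9), beside 8.21% of coding genes. The same 4 genes had a peak in all 6 libraries, beside 3.47%, and 8 of 10 had one in at least 1 library, beside 17.5%. Both genes without any peak, Sox4 and Sox12, belong to SoxC. By subgroup, 4 of 4 SoxB, 1 of 3 SoxC and 3 of 3 SoxE genes of those chosen had a peak in at least 1 library. Sox3, also a SoxB gene, was not among the 10 and had a peak in 2 libraries of each genotype. The windows searched were shorter for the Sox genes (median 9.795 kb) than for all coding genes (median 22.4 kb). Without WT replicate 3, the 8 genes with any peak were marked in both remaining WT libraries. Sox14, Sox11, Sox9 and Sox8 were missing from the WT set only through that library. The pattern of Sox14, Sox11 and Sox9, a peak in every library but WT replicate 3, was shared by 914 other coding genes, and that of Sox8, a peak in replicates 1 and 2 of each genotype only, by 504.

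**Figure D1:**
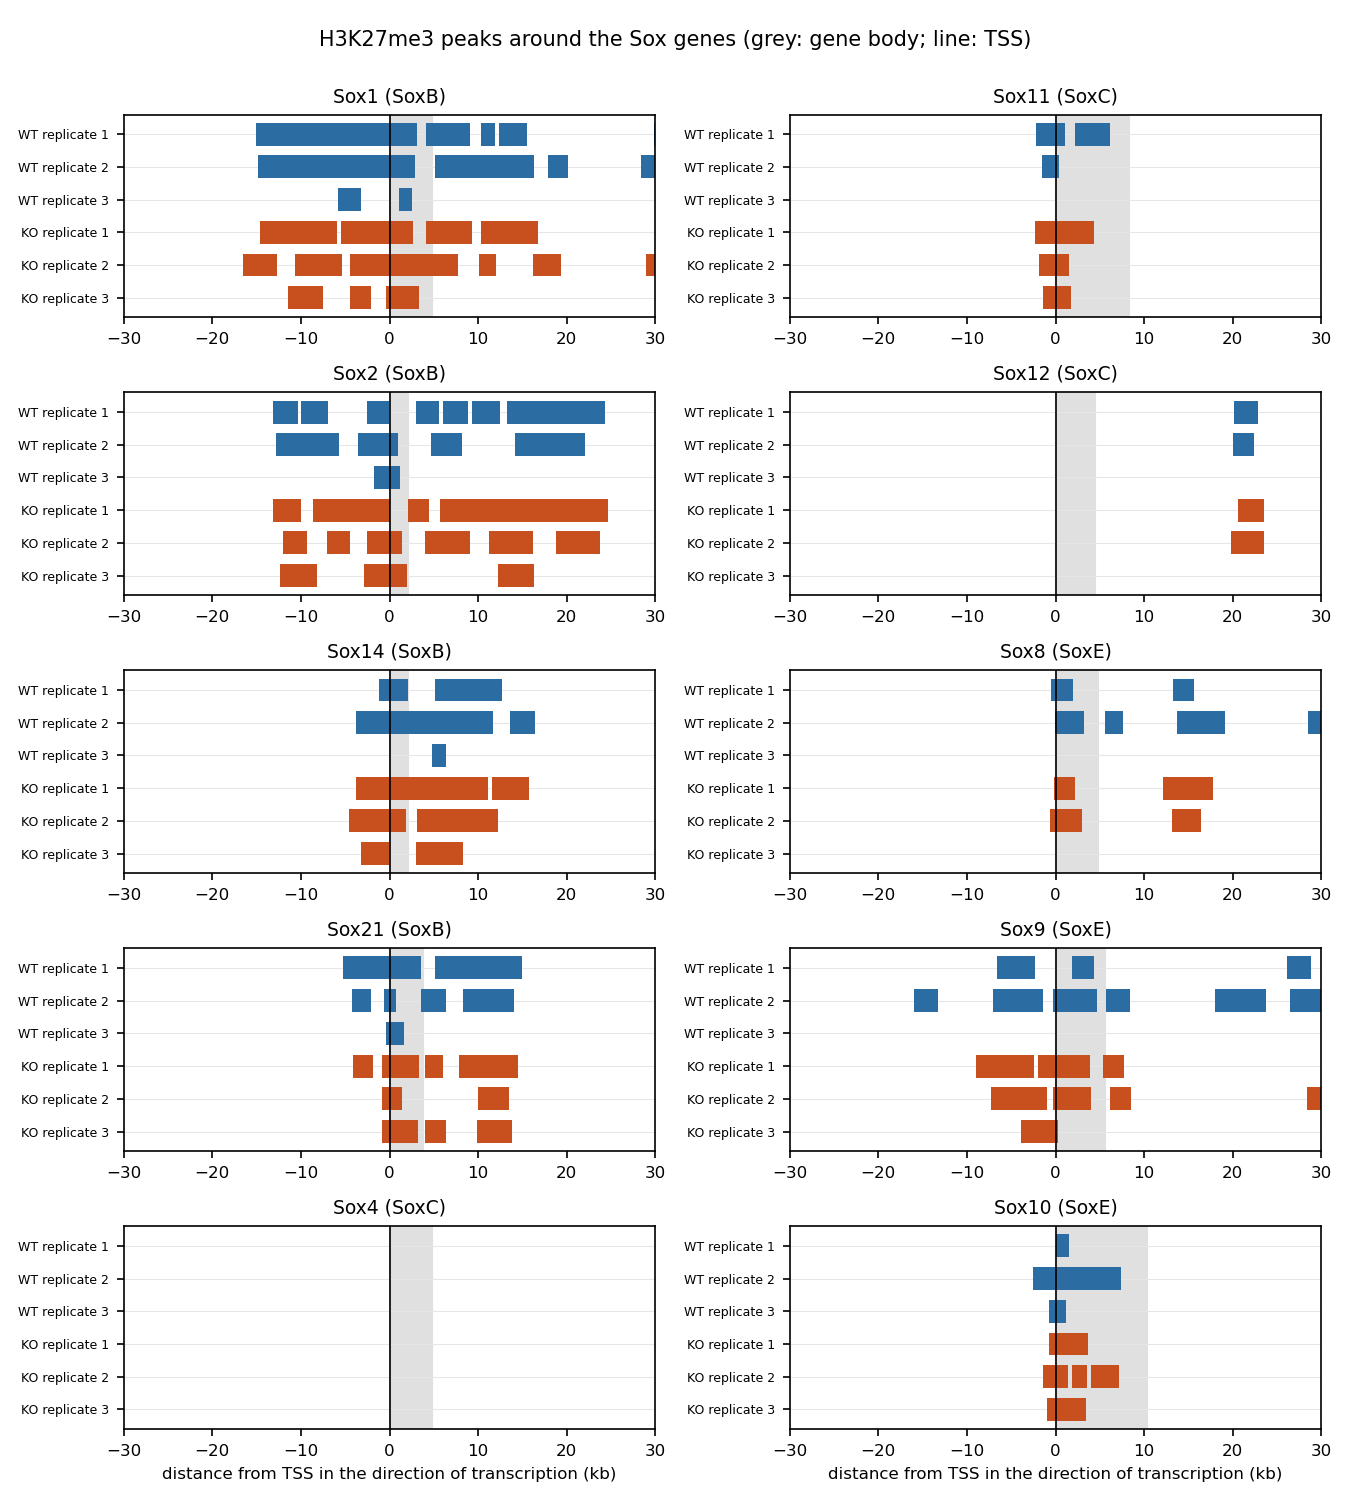
H3K27me3 peaks within 30 kb of the TSS of each Sox gene, with distance from the TSS in kb on the horizontal axis, 1 row per library (blue WT, orange KO), the gene body in grey and the TSS as a vertical line. Peaks lie over the TSS region of 8 genes in several libraries and extend far beyond Sox1 and Sox2, while Sox4 has none within 30 kb and Sox12 has peaks only some 20 kb downstream of its TSS.

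Joined over the 6 libraries, the single regions at the SoxB genes were the longest. They were 36.7 kb at Sox1, 21.1 kb at Sox14, 20.2 kb at Sox21 and 15.1 kb at Sox2, against at most 13.6 kb (Sox9) at the other marked genes. A second, 3.16 kb region at Sox9 began at position 112787614, soon after the first ended at 112786887. The place of Sox9 below Sox2 thus rests on that short break. The length covered in a single library did not follow that order. Sox1, which maintains neural progenitors, lies on chromosome 8 (12395295 to 12400126, plus strand, ENSMUSG00000096014.1) and is encoded by 1 exon. Peaks covered 8.83, 7.85 and 3.18 kb of its promoter and body in replicates 1, 2 and 3 of WT, while KO had 8.42, 9.24 and 6.11 kb. WT replicate 3 was the lowest and KO replicate 2 the highest, and the groups overlapped (6.62 ± 3.02 kb in WT and 7.92 ± 1.62 kb in KO, SD, n = 3 each). The strongest Sox1 peak held 79842 units of total signal, the fragment coverage summed over its bases, in WT replicate 1, which placed it above 99.5% of that library's peaks, and its percentile in the other libraries ranged from 66.3 to 98.9. Joined over the libraries, the domain was 36.7 kb long (chromosome 8, 12378708 to 12415409) and also took in the overlapping transcript Sox1ot. At least 99.2% of the Sox1 coding sequence lay under peaks in each of the 6 libraries.

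Sox2, a SoxB factor of neural progenitors and of pluripotent cells, lies on chromosome 3 (34650405 to 34652461, plus strand, ENSMUSG00000074637.7) inside the long noncoding gene Sox2ot, so a peak there cannot be assigned to one of the pair. The covered length was 2.44, 4.48 and 3.03 kb in replicates 1, 2 and 3 of WT, while KO had 5.02, 4.45 and 4.79 kb. The KO values were close together and above WT replicates 1 and 3, while WT replicate 2 lay just above the lowest KO value (3.32 ± 1.05 kb and 4.75 ± 0.288 kb, SD, n = 3 each). Within 30 kb of the TSS, the peaks of Sox2 added up to 27.9, 23.1 and 3.03 kb in WT and 33.0, 24.3 and 13.0 kb in KO. In WT replicate 1 the peak covered the RefSeq start but stopped short of the GENCODE gene, which starts downstream of it at 34650405. In that library 0% of the Sox2 coding sequence was covered. In KO replicate 1 the covered share was 1.15%, against 97.5% to 100% in the other 4 libraries.

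Sox14 and Sox21 are the SoxB members that act as repressors in neurons and their progenitors. Sox14 (chromosome 9, 99874106 to 99876170, minus strand, ENSMUSG00000053747.9) had 3.26, 5.80 and 0 kb covered in replicates 1, 2 and 3 of WT, and 5.86, 6.46 and 3.13 kb in KO. Each KO library was above the WT library of the same number, yet WT replicate 2 lay within the KO range (3.02 ± 2.91 kb and 5.15 ± 1.77 kb, SD, n = 3 each). The 0 in WT replicate 3 marks a peak that began 2.71 kb outside the window, inside the same 21.1 kb domain. Sox21 (chromosome 14, 118233232 to 118237030, minus strand, ENSMUSG00000061517.8) had 8.59, 3.83 and 2.06 kb in WT and 6.33, 2.22 and 4.01 kb in KO, and its groups overlapped as well, with the lower mean in KO (4.83 ± 3.38 kb and 4.19 ± 2.06 kb, SD, n = 3 each). Sox21 was the only one of the 10 genes whose outermost GENCODE TSS lay under a peak in all 6 libraries. Sox10 fell short only in WT replicate 1, where the peak began 0.007 kb inside the gene. The RefSeq start of Sox2, upstream of its GENCODE TSS, also lay under a peak in every library.

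The SoxC subgroup divided into 1 marked and 2 unmarked genes. Sox11, active in newly formed neurons, lies on chromosome 12 (27334264 to 27342574, minus strand, ENSMUSG00000063632.6) and had 7.17, 1.91 and 0 kb covered in WT and 6.65, 3.41 and 3.15 kb in KO. Its peaks lay over the TSS in the 5 libraries that had one and did not reach beyond 8.44 kb in all. Its strongest peak ranked above 20.4% to 78.1% of the peaks of its library, against 66.3% to 99.5% for Sox1.

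Sox4 (chromosome 13, 28948919 to 28953713, minus strand, ENSMUSG00000076431.4) had 0 kb covered in each of the 6 libraries. The nearest peak was 1788, 1790 and 1790 kb away in WT and 61.6, 1377 and 1790 kb away in KO, so the gene stood in a stretch without called peaks. Sox12, expressed in many embryonic tissues (chromosome 2, 152393611 to 152398063, minus strand, ENSMUSG00000051817.8), also had 0 kb in each library. Here the nearest peak lay 15.7, 15.6 and 224 kb away in WT and 16.2, 15.4 and 222 kb away in KO. In both genotypes the replicate 3 library lacked the peak found near Sox12 in replicates 1 and 2.

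All 3 SoxE genes were marked, Sox8 in 4, Sox9 in 5 and Sox10 in 6 libraries. The ranks of their strongest peaks overlapped. Sox8 (chromosome 17, 25565892 to 25570686, minus strand, ENSMUSG00000024176.10) had 2.44, 3.23 and 0 kb covered in WT and 2.4, 3.68 and 0 kb in KO. The values of WT and KO were close for each replicate number, and the 2 libraries with 50 bp reads had no peak there. The part that read length has in this was not tested. Its region, 3.84 kb long, overlaps the antisense transcript 2810468N07Rik and was the shortest among the 8 marked genes apart from a second, 3.16 kb region at the end of Sox9.

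Sox9, which specifies cartilage and neural crest cells, lies on chromosome 11 (112782224 to 112787760, plus strand, ENSMUSG00000000567.5) and had 5.32, 8.54 and 0 kb covered in WT and 8.58, 8.35 and 4.18 kb in KO. Replicate 3 was the lowest library in each genotype, and WT replicate 2 lay within the KO range (4.62 ± 4.31 kb and 7.04 ± 2.48 kb, SD, n = 3 each). The strongest peak of Sox9 had its summit upstream of the TSS in each of the 5 libraries (summit positions −4.417 and −4.709 kb in WT and −4.504, −2.536 and −1.5 kb in KO). That of Sox8 lay downstream of the TSS, 0.735 to 1.57 kb into the gene, in each of its 4 libraries.

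Sox10, a regulator of neural crest, glia and pigment cells, lies on chromosome 15 (79154908 to 79165240, minus strand, ENSMUSG00000033006.10). It had 1.46, 9.89 and 1.94 kb covered in WT and 4.37, 7.78 and 4.40 kb in KO. The WT libraries thus enclosed the KO libraries (4.43 ± 4.73 kb and 5.52 ± 1.96 kb, SD, n = 3 each). Its peak ranked above 94.3% of peaks in WT replicate 2 but above only 1.97% in WT replicate 1, the widest spread of the 8 marked genes. Peaks covered 0% to 49.9% of its coding sequence.

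**Figure D2:**
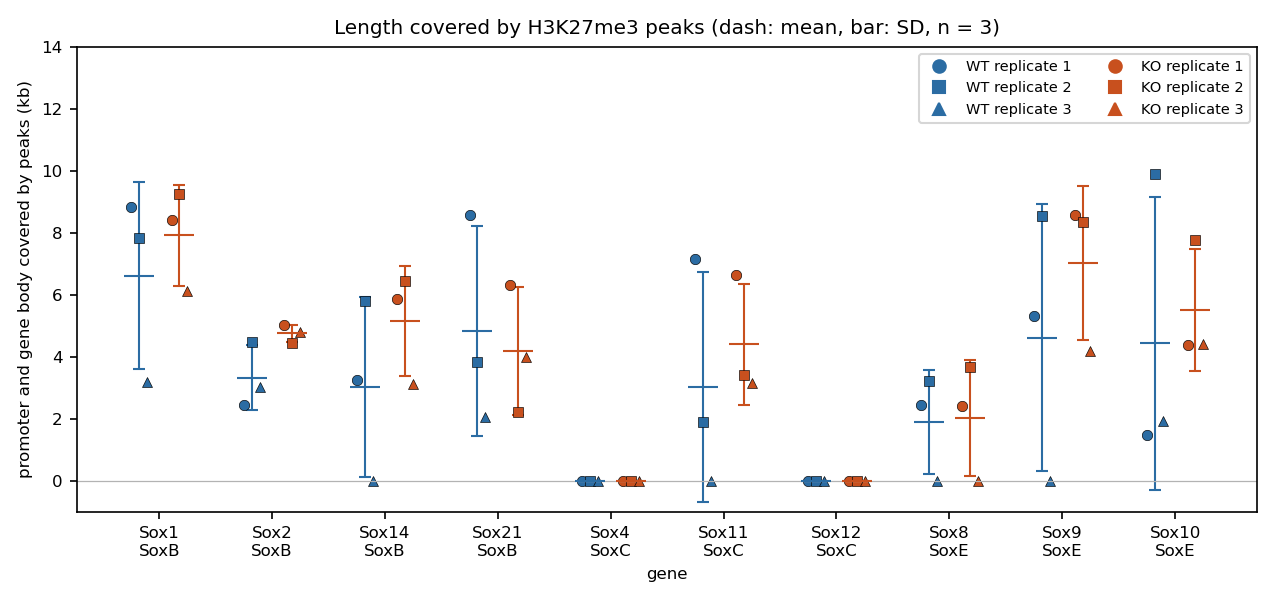
Length in kb of promoter and gene body covered by H3K27me3 peaks for each Sox gene, with WT in blue and KO in orange, 1 point per library shaped by replicate number, the mean as a dash and the SD as a bar (n = 3). The WT and KO points overlap for all 8 marked genes, the WT replicate 3 triangle is at 0 for Sox14, Sox11, Sox8 and Sox9, and Sox4 and Sox12 are at 0 throughout.

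Ordered by the mean over the 6 libraries, the covered length was 7.27 ± 2.28 kb for Sox1 (SD, n = 6), 5.83 ± 3.41 kb for Sox9, 4.97 ± 3.29 kb for Sox10, 4.51 ± 2.53 kb for Sox21, 4.09 ± 2.45 kb for Sox14, 4.04 ± 1.04 kb for Sox2, 3.71 ± 2.76 kb for Sox11 and 1.96 ± 1.59 kb for Sox8. Each of the 7 steps between neighbours in that order was smaller than the SD of the higher gene. The ends of the order can be told from these values more readily than its middle: the lowest value of Sox1, 3.18 kb, was below the highest of Sox8, 3.68 kb, only through WT replicate 3.

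The genotypes were compared with limma in 2 fits over all features. In the first, the total signal at 718 regions called in all 6 libraries was put on a log2 scale and centred on each library's median region, which removes a difference that all regions of a library share but not one in the length called. Among the Sox genes, Sox1, Sox2, Sox14, Sox21 and Sox10 had such a region. Sox1 held 4.54, 3.68 and 2.01 times the signal of the median region in replicates 1, 2 and 3 of WT, and 3.69, 3.49 and 2.54 times in KO, above the median region in every library. The KO minus WT difference of Sox1 was −0.011 ± 0.380 on the log2 scale (SE, n = 3 each). For Sox2 the values were 1.20, 1.32 and 1.72 times the median region in WT and 1.39, 1.003 and 1.99 times in KO, a difference of 0.0086 ± 0.355.

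Sox14 had the largest difference of the 5. Its domain held 1.51, 2.00 and 0.820 times the signal of the median region in WT and 2.13, 1.96 and 1.98 times in KO. The KO libraries were close together and WT replicate 2 lay among them, while WT replicates 1 and 3 were lower. The log2 difference was 0.58 ± 0.38, higher than that of 96.0% of the regions, but it did not pass the test (limma, adjusted p = 0.993, unadjusted p = 0.152). The total follows the length called in each library, which was 10.9, 18.3 and 1.65 kb of the Sox14 domain in WT and 19.1, 15.6 and 8.46 kb in KO. By mean signal per covered base the log2 difference was 0.030, and without WT replicate 3 that in total signal was 0.23. Sox21 had 2.49, 1.51 and 1.05 times the median region in WT and 1.88, 0.840 and 2.49 times in KO, a log2 difference of −0.00097 ± 0.469. Sox10 had 0.253, 1.28 and 1.26 times in WT and 0.614, 1.20 and 0.794 times in KO, a log2 difference of 0.17 ± 0.59, with WT replicate 1 far below the rest. The adjusted p-values of the 5 regions were 0.993 to 0.9997 (limma, Benjamini-Hochberg over 718 regions). Over all regions 0 (0%) were called at an adjusted p under 0.05 and 8 had an unadjusted p under 0.05, 4 higher and 4 lower in KO.

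**Figure D3:**
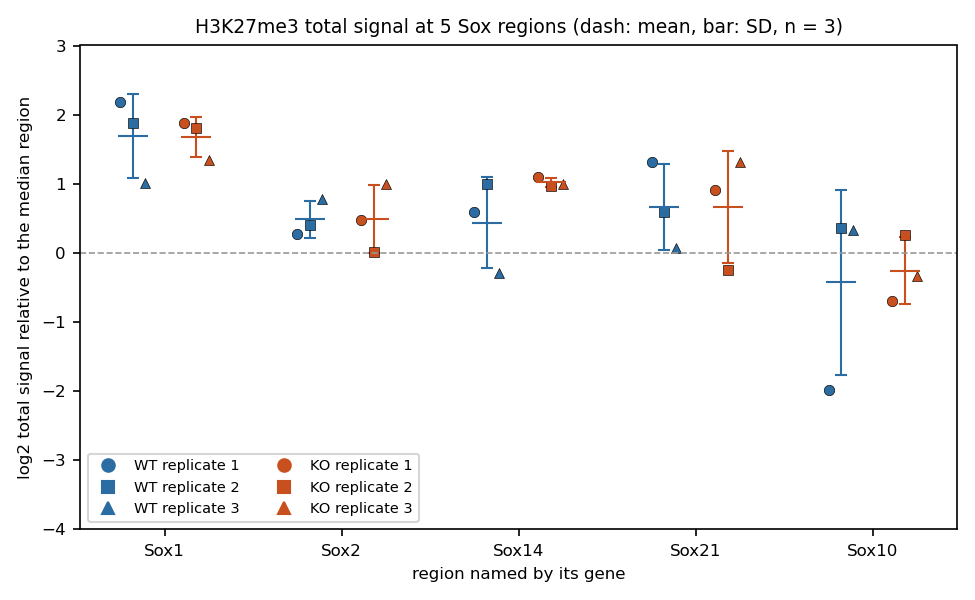
Total H3K27me3 signal at the 5 Sox regions called in all 6 libraries, as log2 relative to the median region of the library (dashed line at 0), with WT in blue, KO in orange, 1 point per library, the mean as a dash and the SD as a bar (n = 3). Sox1 lies above the median region in every library, the KO points of Sox14 lie together at the height of the highest WT point, and Sox10 spreads most in WT.

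The second fit used the covered length, log2(kb + 1) centred on each library's median, of the 2900 genes with a peak in at least 3 libraries, and so also gave values for Sox11, Sox8 and Sox9. The log2 difference, KO minus WT, was −0.30 for Sox1, −0.17 for Sox2, 0.35 for Sox14, −0.69 for Sox21, 0.25 for Sox11, −0.56 for Sox8, 0.38 for Sox9 and −0.042 for Sox10. None of these 8 passed the test (limma, adjusted p = 0.991 to 0.999), and over all genes 0 (0%) did, with 74 at an unadjusted p under 0.05, 2 higher and 72 lower in KO. That split moved with the setting, to 16 higher and 2 lower without scaling, 42 and 43 over genes with a peak in at least 1 library, and 129 and 86 with replicates 1 and 2 only. More than 1 in 2 of the tested genes had no peak in WT replicate 3, whose median was then 0, so centring left that library unscaled and the median gene at −0.20. Leaving out the centring shifts every gene by the same amount, which puts the median gene at 0.41, Sox1, Sox2, Sox8 and Sox10 at 0.31, 0.44, 0.043 and 0.56 and Sox21 at −0.088, with no change in how the genes stand to each other. With replicates 1 and 2 only, where the centring worked for every library, the values were 0.015 for Sox1, 0.34 for Sox2, 0.0056 for Sox8, 0.35 for Sox10 and −0.55 for Sox21. By the uncentred lengths, the WT and KO libraries overlapped for all 8 marked genes, and among the 2900 tested genes they were apart for 2.21%.

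Other genes of the same developmental systems were counted in the same way. Of 22 regulators that act beside these Sox genes in neural progenitors and the neural crest, 20, 20 and 7 had a peak in replicates 1, 2 and 3 of WT, while KO had 20, 19 and 17, beside 12.2%, 14.7% and 4.24% of all coding genes in WT and 14.51%, 13.8% and 8.91% in KO. Of these, 7 were marked in all 3 WT libraries, among them Pax6, a regulator of eye and forebrain development, and Olig2, a regulator of motor neurons and oligodendrocytes, and 17 in all 3 KO libraries, beside 3.85% and 8.21% of coding genes. Like the Sox genes, the list had its fewest calls in WT replicate 3. Of the 10 other Sox genes, 4, 5 and 0 were marked in WT and 5, 4 and 4 in KO. None of them was marked in all 3 WT libraries and 3 were in all 3 KO libraries (Sox6, Sox7 and Sox17), beside the same 3.85% and 8.21%. This list includes the SoxB gene Sox3, marked in WT replicates 1 and 2 and KO replicates 1 and 3.

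The coding genes most like single Sox genes in covered length over the 6 libraries were Hand1 for Sox1, Far2 for Sox8 and Asb8 for Sox14, with root mean square differences of 0.078, 0.034 and 0.088 on the log2(kb + 1) scale. Hand1 encodes a transcription factor of heart and placenta development. For Sox2 the nearest was Gsc, a homeobox gene of the early embryo, at 0.163, and for Sox21 the nearest was farther away, Sdk1 at 0.262. These are descriptions of similar peak lengths only.

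CpG content, which the choice of genes did not use, was high around most of the TSSs. Within 1 kb on each side of the outermost GENCODE TSS, Sox12 had 231 CpG, Sox11 216, Sox2 171, Sox9 144, Sox1 124, Sox8 123, Sox21 119, Sox4 119, Sox14 111 and Sox10 54, against a median of 61 over all coding genes. The median was 55 for coding genes without a peak in any library, 76 for those with a peak in 1 to 5 libraries and 102 for those with a peak in all 6. The Sox genes did not follow that order among themselves. Sox12, with more CpG than 99.8% of coding genes, and Sox4, with the same number as Sox21, had no peak, while Sox10, below the median, had one in all 6 libraries.

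In the 300 bases from 250 before to 50 after the RefSeq start, available for 8 of the 10 genes, the count was 37 CpG in Sox1, 27 in Sox2, 26 in Sox14, 22 in Sox21, 21 in Sox11, 21 in Sox8, 12 in Sox4 and 47 in Sox12, against a median of 7 over 32841 promoters. The letters ACAAAG, a common core of Sox binding sites, were looked for on both strands of these windows. They occurred in 18.7% of all promoters and in 1 of the 8 Sox promoters, that of Sox2. The related ACAATG (12.6% of promoters) and AACAAT (10.7%) occurred in 0 of the 8. A match is no evidence of binding, and its absence says only that the letters are not in the window.

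**Figure D4:**
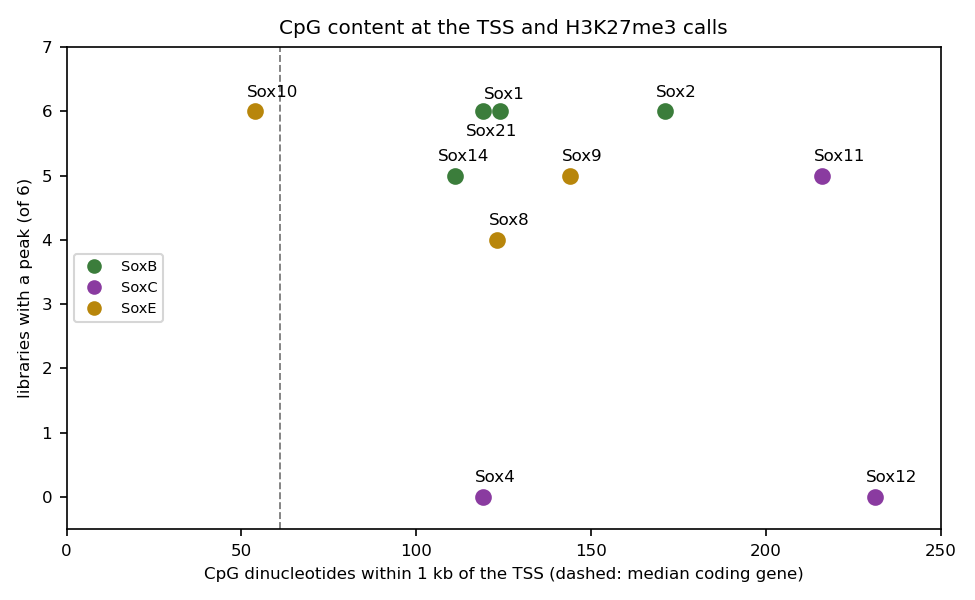
Number of libraries with an H3K27me3 peak at each Sox gene (vertical axis, of 6) against the number of CpG dinucleotides within 1 kb on each side of its TSS (horizontal axis), coloured by subgroup, with the median coding gene (61) as a dashed line. The 2 genes without a peak, Sox4 (119 CpG) and Sox12 (231), lie within or above the range of the marked genes (54 to 216).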

How the data were processed

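H3K27me3 was profiled by CUT&Tag with an antibody to the trimethyl mark in 3 WT and 3 KO libraries, grouped by the labels. The authors trimmed reads with Trim Galore 0.6.6, aligned them to GRCm38 with Bowtie2 2.4.4 and called peaks in each library with SEACR 1.3, keeping the top 0.5% of regions by total signal, so that no call compares a library with a background library. The deposited peak lists give the total signal and the maximum signal of each peak, in summed fragment coverage that is not scaled to depth. Per the file names, duplicates and blacklisted regions had been removed. These lists hold no read totals, so no counting interval is given. The 10 genes, the gene lists and the tests were chosen with earlier results of these data known.

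Peaks were assigned to genes of GENCODE M21 with Python 3.11.15 (pandas 2.3.3, numpy 2.4.6, scipy 1.17.1). Genotypes were compared with limma 3.58.1 in R 4.3.3 on log2 total signal and on log2(covered kb + 1), with Benjamini-Hochberg adjustment over all regions or genes tested and a threshold of 0.05. The offset of 1 kb shrinks the differences of genes with little coverage. The fits were also run on simulated data, in which most of the smallest differences simulated were missed. Same-numbered WT and KO libraries deviated together in total signal (r = 0.277, 0.315 and 0.479 for replicates 1, 2 and 3, across 718 regions, and −0.441 to 0.270 for pairs with different numbers), so a fit with the replicate number as a block was made. In covered length the correlations were 0.038, 0.235 and 0.254, and −0.278 to 0.112 for pairs with different numbers. The replicate 1 pair thus did not stand apart from those in covered length. Alternatives were other windows, peak subsets, scalings, signal measures and offsets, and leaving out libraries. Named genes were the 10 Sox genes, genes of the fixed lists where a count was small, and, for marked genes, the coding genes nearest in covered length. Pax6, Olig2, Kit, Runx1 and Gata2 are examples picked from the lists after their values were seen. Promoter sequences and CpG counts in 300 bases came from RefSeq on GRCm38.p6. The result of 1 further list of marker genes is not reported here.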

Additional observations from a re-analysis of the deposited data

How the results depend on the processing

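The number of Sox genes marked in all libraries of a genotype, 4 in WT and 7 in KO, depended on how many peaks were kept. With the 1047 strongest peaks of each library it was 1 in WT and 1 in KO (Sox1 in both). With peaks at or above the library's median total signal it was 1 in WT and 3 in KO. With replicates 1 and 2 only it was 8 in WT and 8 in KO, and the KO minus WT difference in marked genes per library was 0. Leaving out 1 library gave 4 to 8 genes in WT, 8 without WT replicate 3, and a difference per library of -0.333 (without WT replicate 3) to 1.67. The limma fits called 0 regions and 0 genes under every alternative, at up to 119 regions and 215 genes with an unadjusted p under 0.05.

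Sox14 was positive under every alternative of both fits, but nearly 0 by mean signal (0.030). Its log2 difference was 0.23 to 0.88 in total signal when 1 library was left out and 1.26 without scaling, and 0.17 (20 kb on each side of the TSS) to 0.96 (no scaling) in covered length. In covered length, no alternative reversed Sox9 (0.21 without WT replicate 3 to 0.98 without scaling) or Sox21, which ran from -1.66 with an offset of 0.1 kb to -0.088 without scaling (-1.27 to -0.26 when 1 library was left out). In total signal, Sox1 turned to 0.67 without scaling, 0.044 by mean signal, 0.40 by maximum signal and 0.21 with regions called in at least 3 libraries, and Sox21 to 0.68, 0.13, 0.15 and 0.22 under the same settings. Sox2 turned to -0.23 when scaled by total signal in peaks, -0.14 by mean signal and -0.081 with replicates 1 and 2 only, and Sox10 to -0.068 when scaled by total signal, -0.20 by mean signal and -0.052 by maximum signal. In covered length, with no scaling Sox1 was 0.31, Sox2 0.44, Sox8 0.043 and Sox10 0.56, and with replicates 1 and 2 only they were 0.015, 0.34, 0.0056 and 0.35. With an offset of 0.1 kb they were -1.20, -1.02, -1.51 and -0.79. With genes called in at least 1 library Sox2 was 0.12 and Sox10 0.25, and with 20 kb on each side of the TSS Sox2 was 0.050. Leaving out 1 library, total signal ran from -0.34 to 0.24 for Sox1, -0.23 to 0.26 for Sox2, -0.53 to 0.48 for Sox21 and -0.60 to 0.56 for Sox10, and covered length from -0.67 to 0.13 for Sox1, -0.68 to 0.61 for Sox2, -0.27 to 0.64 for Sox11, -0.92 to -0.17 for Sox8 and -0.80 to 0.50 for Sox10. The cause was not tested.

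With the replicate block, 0 regions and 0 genes were called, with 24 regions and 101 genes at an unadjusted p under 0.05, and the log2 difference stayed at 0.58 for Sox14 in total signal (limma, adjusted p = 0.907) and -0.69 for Sox21 in covered length (limma, adjusted p = 0.916, unadjusted p = 0.0758). Paired by number, the libraries differed by a mean of 1 marked gene (exact sign-flip test, p = 1.0, smallest p 0.25). The block changed no call. The call threshold of each library and the low coverage of WT replicate 3 limit what can be told, since a missing peak there is not shown to be a missing mark.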

Other observations

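Mapping the peaks within 30 kb gave a difference in spread among the marked Sox genes that the window values do not show. Around Sox1 the peaks added up to 28.1, 32.7 and 4.05 kb in WT replicates 1, 2 and 3 and 28.5, 27.6 and 10.1 kb in KO, while around Sox11 they added up to 7.17, 1.91 and 0 kb in WT and 6.65, 3.41 and 3.15 kb in KO. For Sox10 and Sox11 every peak within 30 kb was already counted at the gene, so that the 60 kb value equalled the covered length of the gene in each of the 6 libraries.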
